A study of Homo sapiens with 12 samples.

Results

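The genes described here are 7 genes of C2H2 zinc finger proteins, ZNF875, ZNF527, ZNF248, ZNF572, ZNF594, ZNF615 and ZFP42, out of 60624 gene rows. They were chosen on the measured values, because each had no or almost no reads in at least 1 group of libraries and reads in every library of another. Their own levels are therefore a description and carry no test. The question was whether the absence of a transcript went with the knockout or with the cell line.

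RNA-seq was done on islet cells derived from expandable pancreatic progenitors (ePPs) of MEL1, a human embryonic stem cell line, on day 8 in the medium named R6. There were 4 groups of 3 libraries. The NKX2-2 knockout (KO) libraries have their own wild type (WT) libraries, and the CLEC16A KO libraries have theirs. NKX2-2 is a homeodomain transcription factor of islet cells, and CLEC16A is a regulator of mitophagy. All 4 groups were grown alike. The progenitors grew on feeder cells with EGF, bFGF, 616452 and I-BET151, and R6 held B27, BSA, zinc sulfate, heparin, 616452, T3, LDN-193189, Compound E, vitamin C and forskolin. I-BET151 inhibits the bromodomains of BET proteins, and 616452 inhibits the TGF-β type I receptor. The sample titles name no edited clone and no separate culture, so a difference between 2 lines and an effect of the knockout cannot be told apart, and the 3 libraries of a group may be technical replicates.

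C2H2 zinc finger genes are the largest family of transcription factor genes in the human genome. Many of them carry a KRAB box, which recruits TRIM28 and, through it, histone methyltransferases that silence DNA, above all transposable elements. Most KRAB zinc finger genes lie in clusters, many of them on chromosome 19. ZFP42, also known as REX1, is a relative of YY1 and a marker gene of pluripotent stem cells.

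By sequence patterns in the reference coding sequences, all 7 genes had at least 3 zinc fingers and 4 of the 7 had a KRAB box. The genes with a KRAB box are ZNF875 with 13 fingers, ZNF527 with 11, ZNF248 with 7 and ZNF615 with 19. No KRAB box was matched in ZNF572 with 12 fingers, ZNF594 with 22 or ZFP42 with 4. ZNF875 (ENSG00000181666.18, GRCh38 chr19:37312837-37364455, plus strand) and ZNF527 (ENSG00000189164.15, chr19:37371099-37393066, plus strand) are neighbours, with 6643 bp between them. ZNF615 (ENSG00000197619.14, chr19:51991332-52008211, minus strand) lies in another cluster of the same chromosome. ZNF248 (ENSG00000198105.15) is at chr10:37758538-37858103 on the minus strand, ZNF594 (ENSG00000180626.10) at chr17:5174083-5191868 on the minus strand and ZFP42 (ENSG00000179059.10) at chr4:187995771-188005246 on the plus strand.

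The sequences around the start of 4 genes are shown because these genes fell into pairs with the same pattern of absence. ZNF875 and ZNF527 had no reads in either KO group, and ZNF615 and ZFP42 had none in the CLEC16A WT group alone. Each sequence runs 5′ to 3′ on the gene's own strand over 300 bases, from 250 before to 50 after the outermost start in RefSeq (GRCh38.p14). Capitals mark the dinucleotide CG, which reads the same on both strands and is the main site of DNA methylation in human DNA. Methylation was not measured here.
ZNF875: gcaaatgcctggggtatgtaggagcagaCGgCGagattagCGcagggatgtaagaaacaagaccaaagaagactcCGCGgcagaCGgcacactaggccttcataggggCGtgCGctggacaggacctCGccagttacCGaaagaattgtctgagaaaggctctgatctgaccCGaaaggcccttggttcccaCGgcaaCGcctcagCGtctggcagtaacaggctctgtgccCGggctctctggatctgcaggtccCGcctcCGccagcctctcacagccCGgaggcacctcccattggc
ZNF527: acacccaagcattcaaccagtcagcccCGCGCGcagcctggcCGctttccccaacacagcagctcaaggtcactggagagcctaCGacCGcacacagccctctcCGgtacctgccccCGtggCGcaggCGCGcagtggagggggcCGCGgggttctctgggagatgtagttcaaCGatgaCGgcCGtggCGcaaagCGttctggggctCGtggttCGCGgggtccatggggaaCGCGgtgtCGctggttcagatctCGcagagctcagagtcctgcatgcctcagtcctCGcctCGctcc
ZNF615: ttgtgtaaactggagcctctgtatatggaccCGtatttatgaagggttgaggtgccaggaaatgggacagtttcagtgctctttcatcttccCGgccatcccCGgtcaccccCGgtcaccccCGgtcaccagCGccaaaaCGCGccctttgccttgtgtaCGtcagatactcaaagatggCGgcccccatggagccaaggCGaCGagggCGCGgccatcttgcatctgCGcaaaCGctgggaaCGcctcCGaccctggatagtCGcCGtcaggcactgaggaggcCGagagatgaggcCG
ZFP42: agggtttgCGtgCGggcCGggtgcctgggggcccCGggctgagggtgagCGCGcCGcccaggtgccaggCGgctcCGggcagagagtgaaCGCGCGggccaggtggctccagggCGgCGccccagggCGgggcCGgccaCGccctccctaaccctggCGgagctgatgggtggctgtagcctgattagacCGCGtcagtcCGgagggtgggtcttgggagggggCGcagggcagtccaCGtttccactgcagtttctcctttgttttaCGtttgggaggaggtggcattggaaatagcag
The windows are chr19:37312587-37312886 (plus) for ZNF875, chr19:37370849-37371148 (plus) for ZNF527, chr19:52008162-52008461 (minus) for ZNF615 and chr4:187995521-187995820 (plus) for ZFP42.

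Promoters of 6 of the 7 genes could be matched, and their CG dinucleotides ran from 16 to 37. ZNF594 had 37, ZNF527 27, ZFP42 24, ZNF615 22, ZNF875 18 and ZNF248 16, against a median of 22 over the promoters of 566 other C2H2 zinc finger genes and of 13 over 27305 genes. ZNF875 and ZNF248 were below the median of the family. As many CG as in ZNF594 were found in 11.0% of all promoters, and as many as in ZNF248 in 47.2%. The other 4 lay between, with 27.7% for ZNF527, 33.5% for ZFP42, 37.4% for ZNF615 and 44.3% for ZNF875. RefSeq lists 5 starts for ZNF875, with 18 to 24 CG, and 3 starts for ZNF248, with 16 to 34. Which start the cells used is not known from gene counts. ZNF572 is named only.

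**Figure D1:**
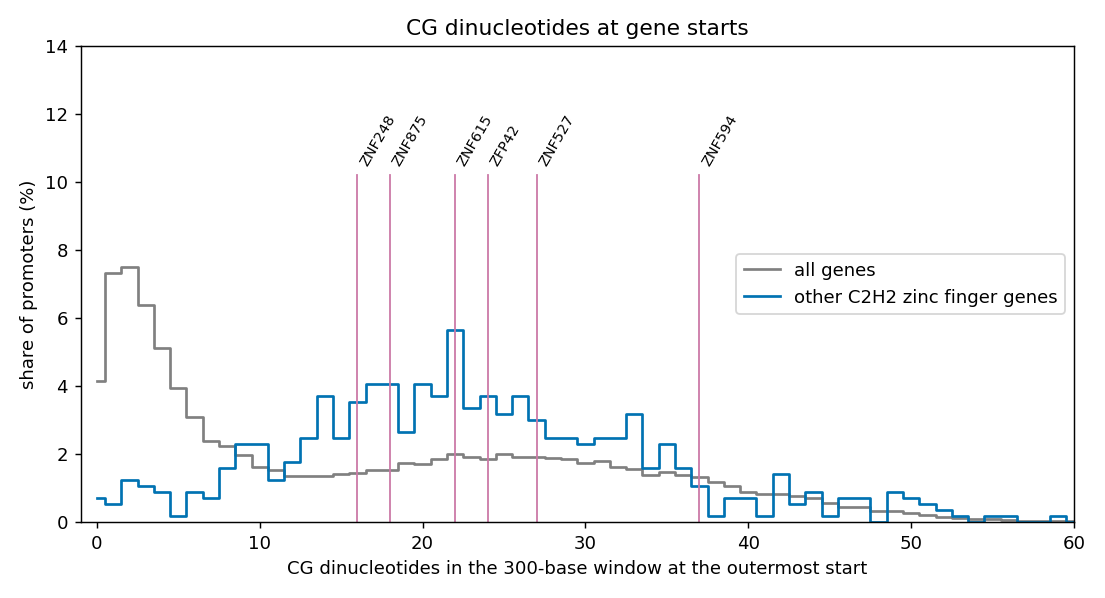
Share of promoters (%, vertical axis) by the number of CG dinucleotides in the 300-base window at the outermost start (horizontal axis), for the 566 other C2H2 zinc finger genes (blue) and all 27305 genes (grey). Vertical lines mark the 6 matched genes, which run from 16 CG in ZNF248 to 37 in ZNF594 and all lie above the median of 13 over all genes.

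Depth and the levels of cell type markers were read first. Total counts ran from 16157481 to 20049349 in NKX2-2 KO and from 18017311 to 20649976 in NKX2-2 WT libraries, and from 32430562 to 33763795 in CLEC16A KO and from 31364272 to 32965728 in CLEC16A WT libraries. The experiments come from separate tables, and the summed TPM of the listed genes reached 41.4% to 47.2% of its nominal total in NKX2-2 libraries and 99.7% to 99.8% in CLEC16A libraries, so folds are taken within an experiment, and where a profile or an order of levels spans both, how the tables were made is part of it. Of 14 islet markers, 13 had at least 20 counts in all 3 libraries of NKX2-2 KO and all 14 did in the other groups. Their summed CPM (counts scaled to library size, with TMM factors) was 1482 to 1608 in NKX2-2 KO against 4142 to 4837 in NKX2-2 WT, and 15328 to 17572 in CLEC16A KO against 28524 to 31399 in CLEC16A WT. CHGA made up most of the CLEC16A sums, and the other 13 summed to 2150 to 2238 in CLEC16A KO against 4666 to 4730 in CLEC16A WT. By mean CPM, only SST and ISL1 in the NKX2-2 experiment and SCG2 in the CLEC16A experiment were higher in KO. The lower KO mean of SCG5 in the NKX2-2 experiment rests on WT library 3, with 72, 77 and 69 counts in KO and 37, 49 and 540 in WT. All 8 mesenchyme markers reached 20 counts in NKX2-2 KO, NKX2-2 WT and CLEC16A WT libraries and 7 did in CLEC16A KO, with summed CPM of 5807 to 6424 in NKX2-2 KO against 2275 to 2556 in NKX2-2 WT, and 44.9 to 50.9 in CLEC16A KO against 149.6 to 161 in CLEC16A WT. The part of cell makeup in the levels below was not tested, and fewer cells of a type and less RNA per cell cannot be told apart in bulk libraries. Transcripts of the edited genes were present in the KO libraries, with NKX2-2 at 76.1 ± 13.7 CPM in NKX2-2 KO and 95.2 ± 1.64 in NKX2-2 WT, and CLEC16A at 36.7 ± 1.34 CPM in CLEC16A KO and 32.3 ± 3.35 in CLEC16A WT (SD, n = 3 each), so counts per gene do not check the labels.

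ZNF875 and ZNF527 were absent from both KO groups and present in both WT groups, although the KO groups are labelled for different genes. ZNF875 had 0, 0 and 0 counts in NKX2-2 KO libraries, against 125, 135 and 111 in NKX2-2 WT libraries. It had 0, 0 and 0 counts in CLEC16A KO libraries, against 623, 500 and 531 in CLEC16A WT libraries. No KO library had a read of the gene and every WT library had more than 100, so the groups did not overlap. At 0 in the KO groups and 6.37 ± 0.418 CPM in NKX2-2 WT, ZNF875 was at least 37.9-fold lower in NKX2-2 KO. Against 16.4 ± 1.40 CPM in CLEC16A WT, it was at least 171-fold lower in CLEC16A KO. Each bound sets the absent group at a floor of 3 counts per library and, like each interval below, covers counting error only.

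ZNF527 repeated this pattern at a lower level. It had 0 counts in all 3 NKX2-2 KO libraries, against 29, 44 and 24 in NKX2-2 WT libraries, and was at least 9.87-fold lower in NKX2-2 KO (0 against 1.66 ± 0.491 CPM). Its counts were again 0 in all 3 CLEC16A KO libraries, against 193, 195 and 157 in CLEC16A WT libraries, and it was at least 56.5-fold lower in CLEC16A KO (0 against 5.40 ± 0.571 CPM). The libraries divided as for ZNF875, with every WT library above every KO library. Per transcript length, ZNF527 was the lower of the 2 in CLEC16A WT libraries, at 2.58 ± 0.757 TPM beside 15.0 ± 0.800 TPM for ZNF875, and in NKX2-2 WT libraries, at 0.287 ± 0.110 beside 1.83 ± 0.407 TPM (SD, n = 3). Both were listed at 0 TPM in all 6 KO libraries.

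ZNF248 was absent from 1 KO group and reduced in the other. It had 0, 0 and 0 counts in NKX2-2 KO libraries, against 183, 164 and 138 in NKX2-2 WT libraries, which made it at least 49.4-fold lower in NKX2-2 KO (0 against 8.29 ± 0.503 CPM). In the CLEC16A experiment every library had reads, with 176, 162 and 178 counts in KO and 693, 566 and 568 in WT. The CLEC16A KO libraries were all below the WT libraries, at 5.48 ± 0.387 against 18.1 ± 1.57 CPM, which is 3.30-fold lower in KO (95% counting interval 3.00 to 3.65). The deposited TPM gave 2.26 ± 0.236 in CLEC16A KO and 9.00 ± 0.405 in CLEC16A WT libraries. Absence of ZNF248 was thus seen in a single KO group, and a second KO group and both WT groups had its transcript.

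**Figure D2:**
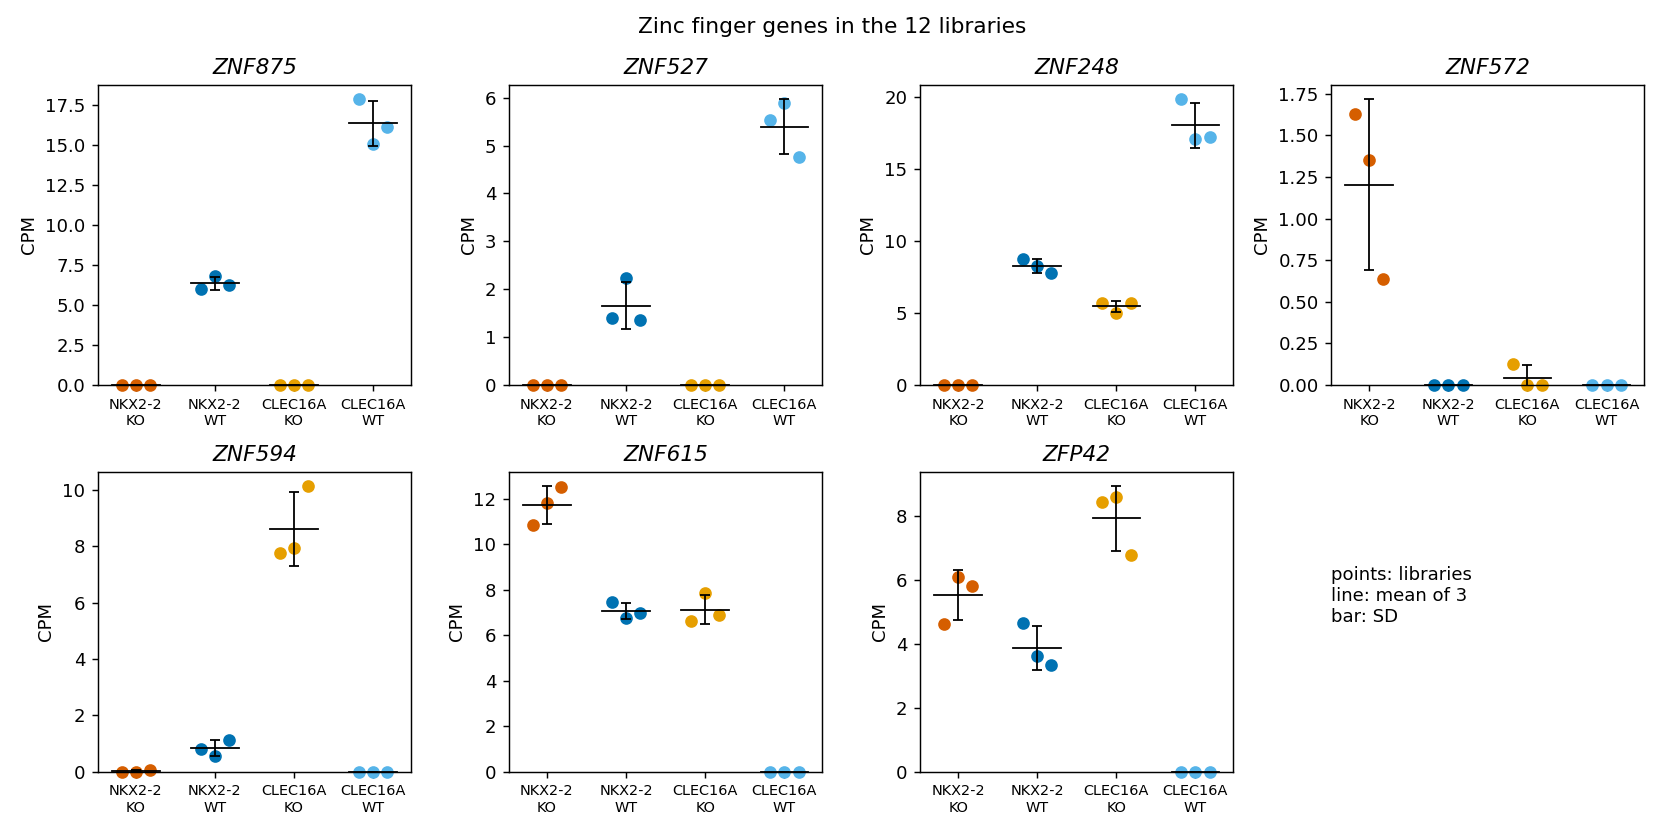
CPM (vertical axes, each from 0 on its own scale) of the 7 genes in the NKX2-2 KO, NKX2-2 WT, CLEC16A KO and CLEC16A WT libraries, with points for libraries, lines for means of 3 and bars for SD. ZNF875 and ZNF527 lie at 0 in both KO groups, ZNF248 in NKX2-2 KO, and ZNF594, ZNF615 and ZFP42 in CLEC16A WT, where all 3 points of each are at 0.

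ZNF615 was absent from a WT group. It had 205, 253 and 215 counts in CLEC16A KO libraries, against 0, 0 and 0 in CLEC16A WT libraries. All KO libraries were above all WT libraries, and the gene was at least 79.9-fold higher in CLEC16A KO (7.13 ± 0.646 against 0 CPM). In the NKX2-2 experiment both groups had the transcript, with 180, 236 and 217 counts in KO and 155, 134 and 124 in WT. The groups did not overlap there in CPM either, but the difference was small, at 11.7 ± 0.846 CPM in NKX2-2 KO and 7.07 ± 0.344 in NKX2-2 WT, or 1.66-fold higher in KO (95% counting interval 1.46 to 1.88). TPM was 3.81 ± 0.204 in CLEC16A KO against 0 in CLEC16A WT, and 2.24 ± 0.215 in NKX2-2 KO against 1.28 ± 0.116 in NKX2-2 WT.

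ZFP42 was likewise missing from CLEC16A WT alone. It had 261, 277 and 211 counts in CLEC16A KO libraries, against 0, 0 and 0 in CLEC16A WT libraries, and was at least 89.0-fold higher in CLEC16A KO (7.94 ± 1.01 against 0 CPM). NKX2-2 KO libraries had 77, 122 and 101 counts and NKX2-2 WT libraries 97, 72 and 59. These groups overlapped, at 5.52 ± 0.780 CPM in NKX2-2 KO and 3.88 ± 0.697 in NKX2-2 WT, a ratio of 1.42 (95% counting interval 1.19 to 1.70). TPM was 5.61 ± 0.798 in CLEC16A KO against 0 in CLEC16A WT, and 1.63 ± 0.228 in NKX2-2 KO against 1.11 ± 0.208 in NKX2-2 WT.

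Other marker genes of pluripotent cells were read beside ZFP42. Of 10 markers, 6 had at least 20 counts in all 3 CLEC16A KO libraries and 5 in all 3 CLEC16A WT libraries, and their summed CPM was 202 to 215 in KO against 122 to 135 in WT. It was 135 to 163 in NKX2-2 KO against 124 to 127 in NKX2-2 WT. L1TD1 alone made up most of the sum in CLEC16A KO, and the other 9 markers summed to 31.5 to 32.2 CPM in CLEC16A KO against 71.7 to 81.0 in CLEC16A WT, the opposite direction. They summed to 39.9 to 46.8 CPM in NKX2-2 KO against 29.1 to 32.5 in NKX2-2 WT. LIN28A made up most of the sum of these 9 in CLEC16A WT, and the 9 were split in the CLEC16A experiment. By mean CPM, LIN28A, SOX2, DNMT3B and PRDM14 were lower in CLEC16A KO. DPPA4 was higher, at 5.14 CPM in CLEC16A KO and 2.22 in CLEC16A WT, and so was TDGF1, at 1.47 and 0.704. Of the core factors, POU5F1 and NANOG were at or near 0, while SOX2 had reads in every library. SOX2 had means of 20.6 CPM in NKX2-2 KO, 14.1 in NKX2-2 WT, 6.31 in CLEC16A KO and 13.4 in CLEC16A WT. POU5F1 had at most 4 counts in any library, UTF1 at most 1, and NANOG had 5, 4 and 6 counts in CLEC16A KO libraries and 0 in all other libraries. Of the 20 genes on a wider pluripotency list without ZFP42, 11 were tested in the CLEC16A experiment, of which 3 were higher and 4 lower in KO (edgeR's quasi-likelihood test, Benjamini-Hochberg adjusted p under 0.05), beside 45.0% of all 19958 genes called there, 23.7% higher and 21.3% lower. L1TD1, an RNA-binding protein gene of pluripotent cells, had 175 ± 6.52 CPM in CLEC16A KO and 52.3 ± 2.52 in CLEC16A WT (log2 1.74, SE 0.07, edgeR adjusted p = 2.0e-15). The list did not move one way, since LIN28A, a repressor of let-7 processing, was lower, at 15.1 ± 0.684 CPM in CLEC16A KO and 52.3 ± 4.01 in CLEC16A WT (log2 -1.79, SE 0.09). In the NKX2-2 experiment 13 were tested, 3 higher and 3 lower in KO, beside 33.4% of all 17436 genes called, 16.6% higher and 16.8% lower. LEFTY1, a Nodal antagonist, had 1.53 ± 0.184 CPM in NKX2-2 KO and 14.8 ± 2.14 in NKX2-2 WT (log2 -3.26, SE 0.19, edgeR adjusted p = 6.9e-08).

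ZNF594 was absent from a KO group in one experiment and from the WT group in the other. It had 240, 256 and 316 counts in CLEC16A KO libraries, against 0, 0 and 0 in CLEC16A WT libraries, and was at least 96.6-fold higher in CLEC16A KO (8.62 ± 1.33 against 0 CPM). In the NKX2-2 experiment it had 0, 0 and 1 counts in KO libraries, against 17, 11 and 20 in WT libraries. The groups did not overlap in either experiment, and they lay in opposite order. With a single read in KO the ratio is poorly bounded. ZNF594 was 43.4-fold lower in NKX2-2 KO with a 95% counting interval of 7.60 to 1790 (0.0192 ± 0.0333 against 0.834 ± 0.287 CPM). TPM was 3.89 ± 0.767 in CLEC16A KO and 0 in CLEC16A WT.

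ZNF572 (ENSG00000180938.6, chromosome 8) had the fewest reads of the 7. It had 27, 27 and 11 counts in NKX2-2 KO libraries, against 0, 0 and 0 in NKX2-2 WT libraries, and was at least 7.76-fold higher in NKX2-2 KO (1.204 ± 0.511 against 0 CPM). These groups did not overlap, with KO library 3 lowest. In the CLEC16A experiment it had 4, 0 and 0 counts in KO libraries and 0 in all 3 WT libraries, too few for a ratio. At this depth no difference was detectable there.

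Across both experiments, absence did not follow the KO label for the set. Only ZNF875 and ZNF527 of the 7 were off in both KO groups and on in both WT groups. ZNF248 and ZNF594 were off in NKX2-2 KO, and ZNF594, ZNF615 and ZFP42 in CLEC16A WT. ZNF572 was off in both WT groups, and its mean in CLEC16A KO was also under the floor of 3 counts per library. All 3 libraries of a group gave the same answer, except the single read of ZNF594 in 1 NKX2-2 KO library and the 4 reads of ZNF572 in 1 CLEC16A KO library. KO and WT libraries did not overlap for 6 of the 7 genes in the NKX2-2 experiment (all but ZFP42) and for 6 of the 7 in the CLEC16A experiment (all but ZNF572), beside 45.5% and 53.8% of all genes tested, and nothing is read from this count because the genes were chosen on it. All 7 passed the filter on low counts in the NKX2-2 experiment and 6 of the 7 in the CLEC16A experiment, where ZNF572 did not. As to order, the ranges of ZNF615 in CLEC16A KO and NKX2-2 WT and those of ZFP42 in NKX2-2 KO and NKX2-2 WT overlapped, and all other adjacent groups with reads of a gene were apart in CPM. Where such groups come from different experiments, a difference between the tables and a difference between the cells cannot be told apart.

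Such patterns were rare among all genes. A gene was counted as all-or-none when all 3 libraries of one group had 3 counts or fewer and all 3 of the other had at least 30. In the CLEC16A experiment 6 genes were off in KO, 0.0377% of the 15904 genes on in WT, and 12 were off in WT, 0.0760% of the 15787 genes on in KO. In the NKX2-2 experiment 9 genes were off in KO, 0.0640% of 14060, and 1 was off in WT, 0.00708% of 14130. These make 28 cases, of which 8 were C2H2 zinc finger genes, and 7 of those 8 were ZNF875 (in both experiments), ZNF248, ZNF527, ZNF594, ZNF615 and ZFP42. C2H2 genes made up 3.38% to 3.65% of the genes on in a group, and nothing is read from that share, because the genes were chosen as all-or-none zinc finger genes. The remaining C2H2 case was ZFP82, a KRAB zinc finger gene on chromosome 19, with 181, 115 and 142 counts in CLEC16A KO and 0, 0 and 2 in CLEC16A WT libraries. ZFP82 had 24, 63 and 51 counts in NKX2-2 KO and 51, 58 and 55 in NKX2-2 WT libraries, the same pattern as ZNF615 and ZFP42. Cases with exactly 0 counts in the absent group numbered 13, and 7 of them were from the genes described here.

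Over the 4 groups together, taking off as 3 counts or fewer in all libraries and on as 20 or more in all, ZNF875 and ZNF527 were the only 2 of all gene rows that were off in both KO and on in both WT groups. No gene was found with the opposite pattern. Genes with few reads miss these limits. ZNF799, another C2H2 gene, had means of 0.0167 CPM in NKX2-2 KO and 0.374 in NKX2-2 WT. Its means were 0.0639 CPM in CLEC16A KO and 1.19 in CLEC16A WT, so it too was near 0 in both KO groups. ZNF615 and ZFP42 shared theirs, on everywhere but in CLEC16A WT, with ZFP82 and AC016747.1. ZNF248 was 1 of 8 genes off in NKX2-2 KO alone, TAC1, the gene of substance P, and IFI44, an interferon-induced gene, among them. By this measure 13934 genes were on in all 4 groups, 504 of them C2H2 genes.

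**Figure D3:**
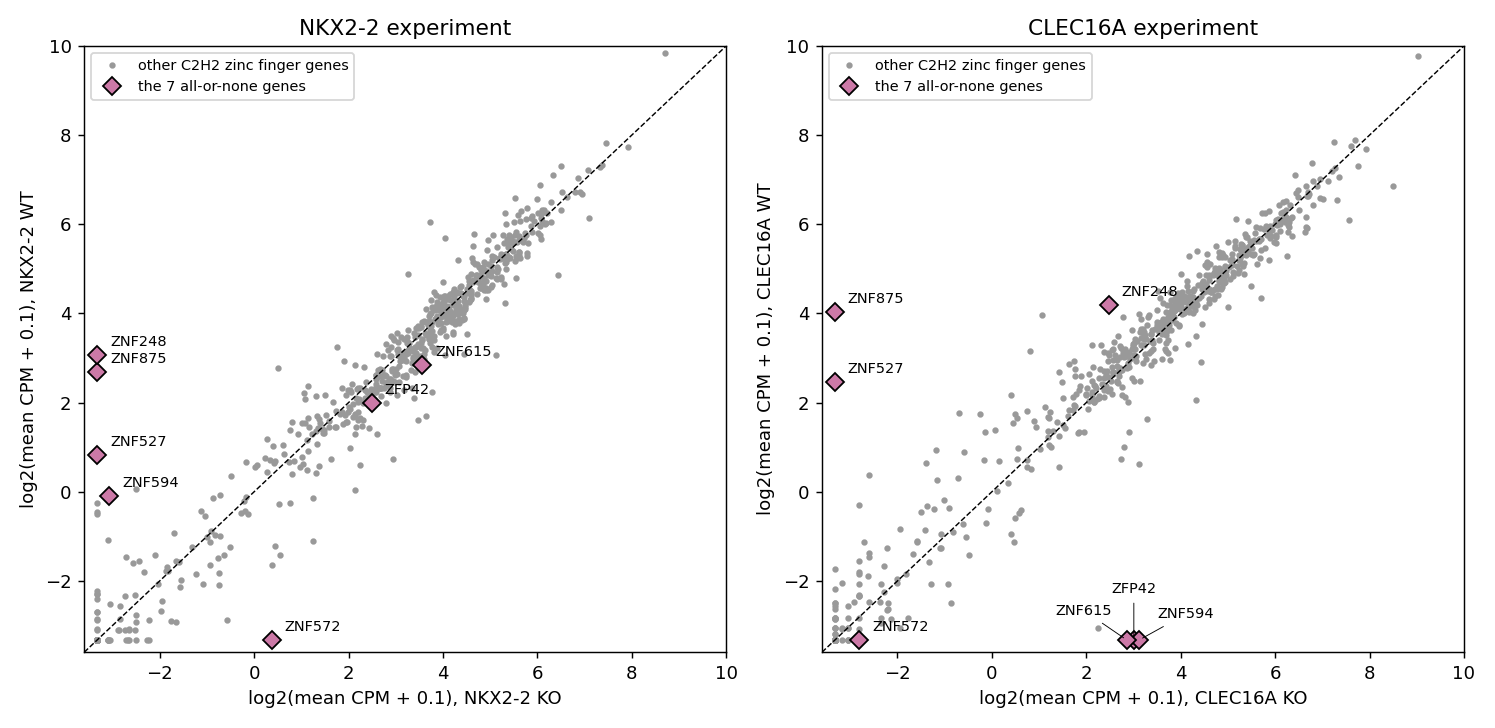
Mean level of each C2H2 zinc finger gene in KO libraries (horizontal axis) against WT libraries (vertical axis), both as log2(mean CPM + 0.1) over 3 libraries, in the NKX2-2 (left) and CLEC16A (right) experiments, with equal levels on the dashed line. Most of the 702 other genes lie along the line, while ZNF875 and ZNF527 lie on the left edge, at 0 in KO, in both panels, and ZNF594, ZNF615 and ZFP42 lie on the bottom edge, at 0 in WT, on the right.

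The genes around ZNF875 and ZNF527 had reads in KO libraries wherever they had them in WT libraries at levels that could be tested. Their 10 nearest protein-coding genes, 5 on either side, are all zinc finger genes. In the NKX2-2 experiment 7 of the 10 could be tested and none passed with edgeR's quasi-likelihood test (Benjamini-Hochberg adjusted p under 0.05), with log2 fold changes of -0.29 to 0.50. The nearest gene above, ZNF569, had 92, 140 and 89 counts in NKX2-2 KO and 137, 94 and 121 in NKX2-2 WT libraries, so the groups overlapped. The nearest below, ZNF383, had 67, 75 and 58 counts in NKX2-2 KO and 58, 72 and 56 in NKX2-2 WT libraries. Among the genes tested on either side of ZNF875 and ZNF527, all had reads in every NKX2-2 KO library.

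In the CLEC16A experiment, 6 of the 8 tested neighbours were lower in KO and 0 were higher, beside 21.3% of all genes lower and 23.7% higher, though none was absent. The call for ZNF570 was lost in all 3 limma fits on TPM, and that for ZNF540 in 1 of them. ZNF420, an inhibitor of the p53 pathway also known as APAK, changed most, with 26, 61 and 68 counts in CLEC16A KO and 343, 266 and 280 in CLEC16A WT libraries (log2 -2.42, SE 0.24, edgeR adjusted p = 5.1e-08). ZNF383 had 69, 86 and 87 counts in CLEC16A KO and 245, 220 and 178 in CLEC16A WT libraries (log2 -1.31, SE 0.19). ZNF540 fell as far (log2 -1.31, SE 0.29), and ZNF793 (-0.65), ZNF569 (-0.64) and ZNF570 (-0.58) fell by less. ZNF571 (log2 -0.42, SE 0.21, edgeR adjusted p = 0.10) and ZNF568 (log2 0.11, SE 0.50) did not pass. Whether neighbours responded differently in the 2 experiments was not tested.

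ZNF615 was absent from CLEC16A WT, where the 7 of its 10 neighbours that could be tested had reads. Of the others, ZNF841 and FPR3 had 0 counts in all 3 CLEC16A WT libraries. ZNF350, the nearest gene on one side, had 0, 0 and 1 counts in CLEC16A KO and 2, 6 and 6 in CLEC16A WT libraries, too few to test. The nearest tested genes on either side are ZNF614, with 318, 477 and 482 counts in CLEC16A KO and 476, 520 and 512 in CLEC16A WT libraries, and ZNF613, with 190, 147 and 141 in KO and 176, 152 and 151 in WT. Neither passed in the CLEC16A experiment. Of 7 tested neighbours 3 were lower in CLEC16A KO and 0 were higher, beside 21.3% of all genes lower and 23.7% higher. The 3 are ZNF577 (log2 -1.27), ZNF649 (-1.18) and ZNF432 (-0.59), in the direction opposite to ZNF615. In the NKX2-2 experiment 2 of 7 were higher in KO, ZNF614 (log2 0.55) and ZNF432 (0.53), beside 16.6% of all genes. The call for ZNF432 was lost with DESeq2, without a filter, in all 3 limma fits on TPM and without any of 4 of the 6 libraries (KO libraries 1 and 2, WT libraries 1 and 2), with an adjusted p of up to 0.28, and that for ZNF614 in 1 limma fit.

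**Figure D4:**
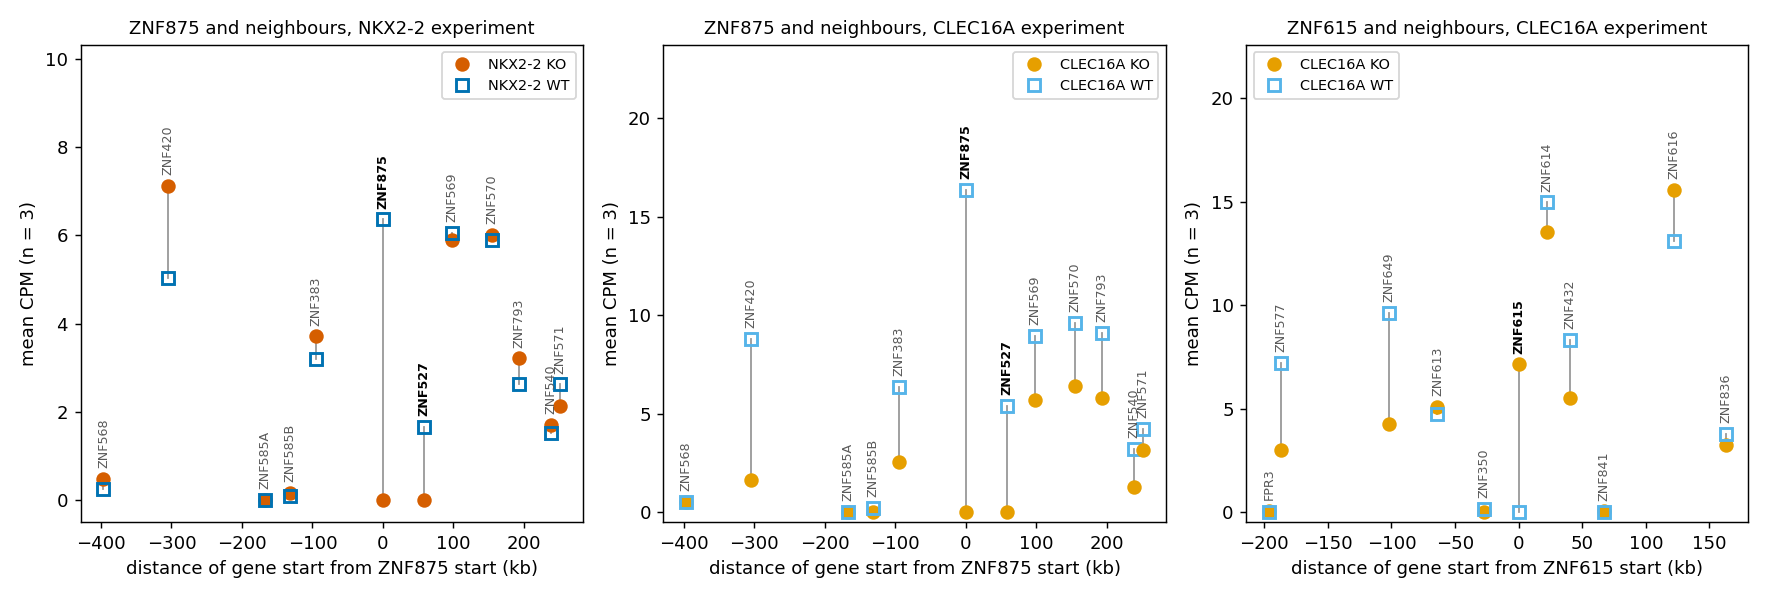
Mean CPM over 3 libraries (vertical axis) of ZNF875, ZNF527 and their neighbours in the NKX2-2 (left) and CLEC16A (middle) experiments, and of ZNF615 and its neighbours in the CLEC16A experiment (right), by the distance of gene starts in kb (horizontal axis), with filled circles for KO and open squares for WT. ZNF875 and ZNF527 are at 0 in KO between neighbours with reads, and ZNF615 is at 0 in CLEC16A WT while ZNF614 beside it has means of 13.52 CPM in KO and 14.96 in WT.

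Neighbours of the other genes varied. Beside ZNF248, ZNF25 had 153, 240 and 219 counts in NKX2-2 KO and 173, 175 and 130 in NKX2-2 WT libraries (log2 0.47, SE 0.16, edgeR adjusted p = 0.041). That call was lost in 10 of 14 alternatives, DESeq2 and leaving out any of 5 libraries (all but KO library 1) among them, with an adjusted p of up to 0.19, and the gene was lower in CLEC16A KO (log2 -0.66, SE 0.13). ZNF33A, next to it, did not pass in either experiment. Around ZFP42, 4 of 5 tested neighbours were higher in CLEC16A KO, beside 23.7% of all genes. They are F11, the gene of coagulation factor XI (log2 3.11, SE 0.18), KLKB1, plasma prekallikrein (2.29, SE 0.36), CYP4V2, a fatty acid hydroxylase (1.12, SE 0.08), and the cadherin FAT1 (0.75, SE 0.06). Their starts lie at -1407977 to -1804204 bp from that of ZFP42, toward lower coordinates. Of 4 tested in the NKX2-2 experiment 1 was higher in KO (KLKB1, log2 0.73, lost in 8 of 14 alternatives) and 2 were lower (F11, -0.66, and CYP4V2, -0.42), beside 16.6% of all genes higher and 16.8% lower. The nearest genes on the other side, TRIML1 and TRIML2, had at most 4 counts in any library. FRG1, the next, had 2, 149 and 9 counts in NKX2-2 KO and 181, 6 and 4 in NKX2-2 WT libraries. A count near 0 in some NKX2-2 libraries thus stood beside a high count in another of the same group. In the CLEC16A experiment FRG1 had 761, 780 and 770 counts in KO and 665, 812 and 725 in WT libraries. The reason was not tested. Around ZNF594, 4 neighbours were higher and 3 lower of 9 tested in the CLEC16A experiment, and 0 higher and 1 lower of 7 in the NKX2-2 experiment. For ZNF572 these counts were 2 and 3 of 10 in the CLEC16A experiment and 0 and 3 of 10 in the NKX2-2 experiment. Over all genes 23.7% were higher and 21.3% lower in CLEC16A KO, and 16.6% higher and 16.8% lower in NKX2-2 KO. Of these CLEC16A calls, that for C1QBP beside ZNF594 was lost in 8 of 14 alternatives. Those for MTSS1, NDUFB9 and LRATD2 beside ZNF572 were lost in 4 each. The GENCODE annotation places 7 genes over ZNF875 and ZNF248, with at most 9 counts in any library. By RefSeq coordinates the end of USP6 (chr17:5116032-5174991) also reaches into ZNF594. USP6 had 25, 44 and 43 counts in CLEC16A KO and 16, 16 and 18 in CLEC16A WT libraries, and 4, 2 and 6 in NKX2-2 KO and 15, 6 and 4 in NKX2-2 WT libraries. Whether the 2 genes shared reads was not tested. Paralogs of this family share sequence, so reads split between near-identical copies are uncertain.

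The rest of the C2H2 family was read beside these 7 genes. Of 702 other C2H2 genes, 552 were tested in the NKX2-2 experiment, of which 79 were higher and 55 lower in KO and 418 did not pass, which is 24.3% called beside 33.4% of all genes, with a median log2 fold change of 0.07 beside 0.03 over all genes. In the CLEC16A experiment 567 were tested, of which 87 were higher and 139 lower and 341 did not pass, 39.9% beside 45.0%, with a median of -0.09 beside -0.01. The split depended on scaling, with 109 higher and 46 lower in NKX2-2 KO and 68 higher and 186 lower in CLEC16A KO under upper-quartile scaling. PRDM16, a regulator of brown fat and stem cell fate, had 13.03 ± 2.60 CPM in NKX2-2 KO and 66.1 ± 9.31 in NKX2-2 WT (log2 -2.34, SE 0.16, edgeR adjusted p = 2.5e-07). BNC2, basonuclin 2, had 34.7 ± 3.67 CPM in NKX2-2 KO and 8.24 ± 1.31 in NKX2-2 WT (log2 2.07, SE 0.15). ZBTB7C was lower in NKX2-2 KO (log2 -1.64, SE 0.13), and GLI1, an effector of Hedgehog signalling, was higher (1.97, SE 0.17). KLF5 and KLF6, Krüppel-like factors, were higher in CLEC16A KO (log2 1.64 and 1.47, SE 0.07 each), as was ZNF114 (2.30, SE 0.13). ZNF467 had 1.99 ± 0.313 CPM in CLEC16A KO and 15.6 ± 0.515 in CLEC16A WT (log2 -2.96, SE 0.16). None of these was absent from a group.

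Among 323 other genes with a KRAB box, 234 were tested in the NKX2-2 experiment, with 34 higher and 10 lower in KO, and 242 in the CLEC16A experiment, with 27 higher and 52 lower. That is 18.8% called in the NKX2-2 experiment, beside 33.4% of all genes, and 32.6% in the CLEC16A experiment, beside 45.0%. Their median log2 fold changes were 0.16 and -0.09. ZNF443 had 0.0752 ± 0.0352 CPM in NKX2-2 KO and 0.944 ± 0.0271 in NKX2-2 WT (log2 -3.55, SE 0.55, edgeR adjusted p = 2.5e-04), and ZNF300 had 2.26 ± 0.446 CPM in NKX2-2 KO and 0.368 ± 0.161 in NKX2-2 WT (log2 2.62, SE 0.39). ZNF764 was lower in NKX2-2 KO (log2 -0.88, SE 0.13) and ZNF302 was higher (0.75, SE 0.13). ZNF316 was lower in CLEC16A KO (log2 -0.68, SE 0.08), beside ZNF420, ZFP82 and ZNF114 given above.

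Genes of the KRAB silencing machinery, such as TRIM28, SETDB1 and DNA methyltransferases, formed another list. Of 31 listed cofactors, 28 were tested in the NKX2-2 experiment, 3 higher and 3 lower in KO, and 30 in the CLEC16A experiment, 2 higher and 9 lower. These are 21.4% called in the NKX2-2 experiment, beside 33.4% of all genes, and 36.7% in the CLEC16A experiment, beside 45.0%. CHD3, a chromatin remodeller that binds TRIM28, had 78.9 ± 3.21 CPM in NKX2-2 KO and 46.1 ± 4.22 in NKX2-2 WT (log2 0.78, SE 0.11), and 35.1 ± 1.35 CPM in CLEC16A KO and 64.6 ± 3.34 in CLEC16A WT (log2 -0.88, SE 0.08). UHRF1, which maintains DNA methylation, was lower in NKX2-2 KO (log2 -0.47, SE 0.12) and CBX3, a heterochromatin protein, was higher (0.47, SE 0.12). DNMT3L, a cofactor of DNA methyltransferases, had 13.49 ± 2.77 CPM in CLEC16A KO and 1.86 ± 0.383 in CLEC16A WT (log2 2.86, SE 0.19, edgeR adjusted p = 2.8e-11), and 1.34 ± 0.370 CPM in NKX2-2 KO and 2.85 ± 0.418 in NKX2-2 WT (log2 -1.10, SE 0.28). The histone methyltransferase EHMT2 and the deacetylase HDAC2 were lower in CLEC16A KO (log2 -0.46, SE 0.08, and -0.32, SE 0.06). No part of these genes in the absence of ZNF875, ZNF527 or the others was tested.

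Genes with the most similar profile were found by dividing the CPM of each gene by its highest library and taking the mean absolute difference over the 12 libraries, where 0 is the same profile, among 16749 genes. The 12 libraries span both sets of tables, so the likeness is a description. The profile most like ZNF875 was that of ZNF527, at 0.0442, followed by ZNF248 at 0.0883. BRINP2 came next, at 0.107, and had reads in all groups. For ZNF527 the order was ZNF875, ZNF799 (0.0908) and BRINP2 (0.103). ZNF248 was most like POU2AF1 (0.0569), ARC (0.0606) and CORO2B (0.0653), ZNF572 had LINC02248 (0.0496) and FOXF2 (0.0516) among its nearest 3, and ZNF594 was most like G6PC (0.0324), CCL3L1 (0.0382) and HTR3A (0.0412). ZNF615 was most like GJB2 (0.0605), RBP2 (0.0764) and ALB (0.0848), and ZFP42 most like LINC02754 (0.0781), CFAP300 (0.0885) and LRRC61 (0.0912). LRRC61 had means of 34.8 CPM in CLEC16A KO and 0.0478 in CLEC16A WT, and of 20.04 in NKX2-2 KO and 24.1 in NKX2-2 WT.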

How the data were processed

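Bulk RNA-seq of 12 libraries was analysed, with groups and replicate numbers from the sample titles. The authors deposited 2 tables for each experiment, raw counts and TPM by gene. The submitters' processing notes name the tools fastp 0.22.0, HISAT2 2.2.1 and StringTie 2.1.7 and the build hg38. How reads were counted, on which annotation release and whether by strand is not given in the sources used here. The 45 rows of pseudoautosomal Y copies were dropped.

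The 7 genes were matched by symbol or Ensembl ID, and all 7 were found. They and the gene lists were chosen with earlier results of these data known. Other genes were tested within each experiment with edgeR 4.0.16 in R 4.3.3 (quasi-likelihood F test, robust, TMM, filterByExpr) on the deposited counts, with Benjamini-Hochberg adjustment over all genes and a threshold of 0.05. The SE was computed from the log2 fold change and F. The fit was tested on simulated counts. Because nothing says that replicates were separate cultures, p-values measure the spread between libraries. CPM used TMM-scaled library sizes, and values are mean ± SD. Counting intervals are exact at 95%.

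C2H2 fingers and KRAB boxes were found by sequence patterns in coding sequences of GENCODE transcripts, and promoters are from RefSeq. The genes named are the 7 genes, their 5 nearest protein-coding genes on either side, the 4 genes of each list with the smallest p among those called, the 3 most similar profiles with at least 1 CPM in the highest library, and zinc finger genes among the all-or-none genes. TAC1, IFI44, LRRC61 and AC016747.1 were named after their values were seen. A gene that this rule would name is not reported here. Alternatives were DESeq2 1.42.0, RLE scaling, no filter, a replicate block, limma 3.58.1 on log2(TPM + 1) and log2(TPM + 0.1), other count limits and leaving out each library. Upper-quartile scaling was added after seeing the data.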

Additional observations from a re-analysis of the deposited data

Results flagged for a closer look

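ZNF594 differed between the experiments. Its mean was 0.0192 CPM in NKX2-2 KO and 0.834 CPM in NKX2-2 WT, with every KO library below every WT library. In the CLEC16A experiment it was 8.62 CPM in KO and 0 CPM in WT, with every KO library above every WT library. The difference between the experiments was not tested.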

How the results depend on the processing

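The mean CPM of the 7 genes in each group was recomputed under RLE scaling, without scaling and without each library in turn (28 values, 140 recomputed). Under RLE scaling and without scaling, means above 0 moved by less than 1 SD of the replicates. Groups at 0 counts stay at 0 under any setting. Leaving out 1 of 3 libraries cannot move a mean by 1 SD, so nothing is read from those values. Counts of all-or-none genes followed their limits. With 0 counts in place of 3 or fewer there were 5 off in NKX2-2 KO, 2 off in CLEC16A KO and 5 off in CLEC16A WT. With 100 counts or more in place of 30 there were 3 off in NKX2-2 KO, 0 off in NKX2-2 WT and 5 off in CLEC16A WT. On TPM (0.05 or less against 1 or more) there were 3 off in NKX2-2 KO, 0 off in NKX2-2 WT, 13 off in CLEC16A KO and 25 off in CLEC16A WT. Without 1 library, these counts ran from 9 to 13 off in NKX2-2 KO, 1 to 2 off in NKX2-2 WT, 6 to 11 off in CLEC16A KO (11 without KO library 3) and 12 to 19 off in CLEC16A WT (19 without WT library 2).

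Called genes in the NKX2-2 experiment also moved. With limma on log2(TPM + 1) there were 83 C2H2 and 27 KRAB genes, and on log2(TPM + 0.1) 82 and 27. With no filter on log2(TPM + 1) there were 3247 genes in all, 50 C2H2, 14 KRAB, 2 cofactor, 5 neighbouring and 2 pluripotency genes, and 48 KRAB genes in the CLEC16A experiment. The cause was not tested. Without 1 library, NKX2-2 pluripotency calls ran from 3 (without KO library 2) to 7. Over all genes the calls were 2888 higher and 2936 lower in NKX2-2 KO and 4732 higher and 4253 lower in CLEC16A KO, against 3473 and 2478, and 4034 and 5294, under upper-quartile scaling, and 3047 and 4702 in CLEC16A KO with limma on log2(TPM + 1). That fit gave 37 higher and 153 lower C2H2 genes and 10 and 54 KRAB genes in CLEC16A KO, where upper-quartile scaling gave 21 and 71 KRAB genes. In NKX2-2 KO upper-quartile scaling gave 6 and 3 cofactors, 8 and 8 neighbours and 4 and 2 pluripotency genes. Without a filter on counts, C2H2 calls in NKX2-2 KO were 70 higher and 69 lower. Upper-quartile scaling moved the median of all genes by less than 0.1.

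Replicate numbers did not pair the libraries in the CLEC16A experiment. In the NKX2-2 experiment KO and WT library 3 went together and numbers 1 and 2 did not match, so pairing there is not settled. Whether the libraries with number 3 shared a batch was not tested. Same-numbered KO and WT libraries correlated at 0.22, 0.067 and 0.54 in the NKX2-2 and at -0.014, 0.0028 and -0.066 in the CLEC16A experiment, in their deviations from group means. NKX2-2 KO library 3 correlated at -0.39 and -0.32 with WT libraries 1 and 2. KO library 1 correlated at 0.28 with WT library 2, and KO library 2 at 0.25 with WT library 1, both above their same-numbered values. With the replicate block, the NKX2-2 calls were 8037 over all genes, beside 5824 without it, and 216 C2H2, 76 KRAB, 11 cofactor and 20 neighbouring genes. The other counts stayed within 1.5 times.

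Depth limits the low genes. A floor of 3 counts per library keeps the bound for ZNF572 and ZNF527 in the NKX2-2 experiment under 10-fold, and the single KO read of ZNF594 there leaves its ratio open down to 7.60-fold.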
